A study of Mus musculus with 4 samples.

Results

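B cell identity genes are a group of 9 genes that mark the B lymphocyte lineage, and they were followed in RNA-Seq libraries of CD4+ T cells isolated from lung tumors. The genes *Ms4a1*, *Cd79a*, *Cd79b*, *Pax5*, *Cd22*, *Fcer2a*, *Cr2*, *Blk* and *Ebf1* were chosen by name, with earlier results of these data known. All 9 were found among the 25239 gene symbols counted in each library. The study compared WT littermates with CD4/ALK4-KO mice, all male, 8 to 10 weeks old and on a C57BL/6 background, with 2 libraries of each genotype. CD4/ALK4-KO mice carry CD4CreERT2+/- and Acvr1b fl/fl, so that tamoxifen turns on Cre recombinase from the *Cd4* promoter and removes *Acvr1b*, which encodes the activin receptor ALK4, in cells that use this promoter. The methods give 5 daily doses of 75 mg/kg of tamoxifen without saying whether the WT mice received them too. All mice carried lung tumors of LLC-OVA cells, which derive from Lewis lung carcinoma and make ovalbumin, and the labels state that tumors were taken after 18 to 22 days, while the methods give an earlier range for this model. CD4+ T cells were isolated with a kit from leukocytes banded on a percoll gradient, and the number of mice behind each library is not stated in the sources used here.

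B lymphocytes recognize antigen through the B cell receptor, a surface immunoglobulin whose signal is passed on by the CD79a and CD79b chains. EBF1 and PAX5 are the transcription factors that set up and maintain the lineage, the kinase BLK acts next to the receptor, and CD22, CD21 and CD23 tune the response of mature B cells. In lung tumors, B cells gather with T cells in lymphoid aggregates. CD4+ T cells normally carry little RNA of these genes.

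The libraries held 11823908 to 13943237 counts on genes. In the check of the labels, the targeted gene *Acvr1b* had 426 and 342 counts in the WT libraries against 322 and 445 in the CD4/ALK4-KO libraries. It did not separate the labelled genotypes, and all directions below are between libraries as labelled. The deletion is limited to cells that use the *Cd4* promoter while the counts cover all cells of a library, so they cannot test it. *Cd4*, the marker of the labelled cell type, had 759 and 649 counts in WT and 3654 and 4033 in CD4/ALK4-KO. The CD8 genes rose as well (named after their values were seen). *Cd8a* had 365 and 321 counts in WT and 1996 and 1285 in CD4/ALK4-KO, and *Cd8b1* had 290 and 269 against 1696 and 1081. The libraries also held markers of other cells. The summed CPM (counts scaled to the TMM-adjusted library size) of 10 T cell markers was 445 and 418 in the WT libraries and 2423 and 2282 in the CD4/ALK4-KO libraries. For 8 macrophage markers it ranged from 1376 to 1988, for 5 neutrophil markers from 875 to 1364, and for 9 fibroblast and pericyte markers from 3966 to 7309. Fewer cells of a type and less RNA per cell cannot be told apart in such bulk libraries.

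CD4/ALK4-KO replicate 1 stood apart from the other 3 libraries. *Rag1*, which encodes a subunit of the recombinase that rearranges antigen receptor genes in both B and T cell precursors, had 2903 counts there, against 5 and 20 in the WT libraries and 3 in CD4/ALK4-KO replicate 2. *Rag2* had 113 counts there against at most 1 elsewhere, and *Dntt*, which encodes terminal transferase, had 1015 against at most 61. The surrogate light chain genes of B cell precursors did not share this pattern, since that library had 0 counts of *Vpreb1* and 1 of *Igll1*. *Ptcra*, the pre-T cell receptor gene (named after its values were seen), had 36 counts there and 1 or 2 in each of the others. The ribosomal protein gene *Rps29* had 1739 counts in the same library against 8320 to 13149 in the others. *Tmsb10* had 719 there against 4103 to 4645 (both genes were named after their values were seen). The median log2 fold change and the counts of separated B cell identity genes are therefore also given without this library.

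All 9 B cell identity genes were higher in the CD4/ALK4-KO libraries at an adjusted p under 0.05 (edgeR's quasi-likelihood test, Benjamini-Hochberg over 13919 genes). Of all genes tested, 17.4% were higher by this rule. The median log2FC (log2 fold change, CD4/ALK4-KO minus WT) of the 9 genes was 2.52, against -0.0082 over all genes tested. In every one of the 9, both CD4/ALK4-KO libraries lay above both WT libraries, as did 32.7% of all genes tested. For 7 of them the lower CD4/ALK4-KO library was over 2 times the higher WT library, which held for 7.35% of all genes. Without CD4/ALK4-KO replicate 1 all 9 genes were again higher, with a median of 3.02 and 20.3% of all genes higher, and without CD4/ALK4-KO replicate 2 this fell to 8 genes and a median of 1.58, with 19.1% of all genes higher. With CD4/ALK4-KO replicate 2 alone, 9 of the genes lay above both WT libraries (41.8% of all genes) and 9 were over 2 times the higher of them (10.9%), and with replicate 1 alone these counts were 9 (43.1%) and 7 (9.98%). The libraries are labelled as biological replicates, and with 2 against 2 an exact permutation test of a single value cannot give a two-sided p below 0.33.

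**Figure D1:**
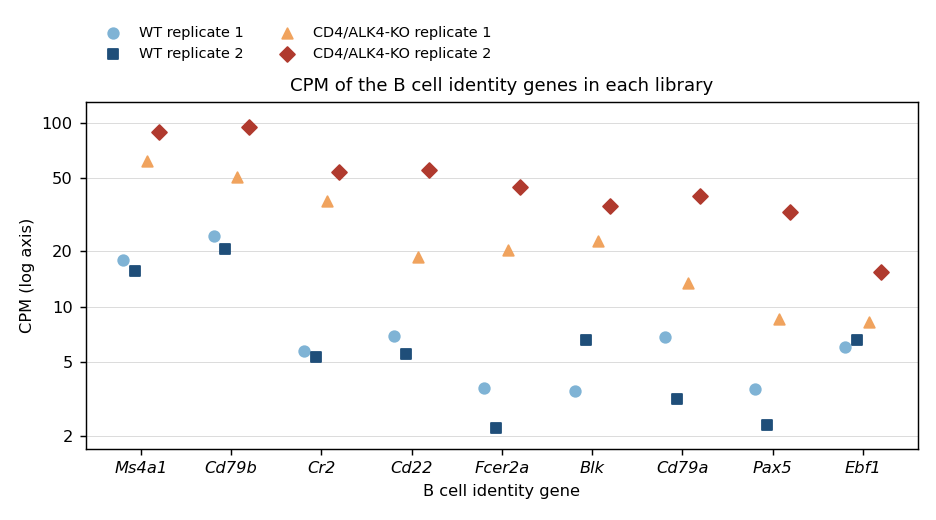
CPM of each B cell identity gene (horizontal axis) on a log vertical axis, with 1 point for each of the 4 libraries. In every gene both CD4/ALK4-KO libraries lie above both WT libraries, replicate 2 is the higher of the CD4/ALK4-KO libraries, and the gap is narrowest for *Ebf1*.

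The B cell receptor chain genes were the highest of the 9 per length in the mean of each genotype. *Cd79b* lies on chromosome 11 (106311341 to 106314762 in GRCm38, the build of all positions here) and had 332 and 279 counts in the WT libraries and 604 and 1163 in the CD4/ALK4-KO libraries. The groups did not overlap, and the 2 CD4/ALK4-KO libraries differed more from each other than the WT libraries did. Its level was 22.4 ± 2.55 CPM (SD, n = 2) in WT and 72.5 ± 30.7 CPM in CD4/ALK4-KO, log2FC 1.69 (SE 0.26, edgeR adjusted p = 4.1e-05). Its partner *Cd79a* (chromosome 7, 24897381 to 24902197) had 94 and 43 counts in WT and 161 and 494 in CD4/ALK4-KO. Here the spread within each genotype was wide, with WT replicate 1 at 2.16 times WT replicate 2 and CD4/ALK4-KO replicate 2 at 2.96 times replicate 1. For *Cd79a* the log2FC was 2.41 (SE 0.63, edgeR adjusted p = 0.032), and it was 1.42 without CD4/ALK4-KO replicate 2, 3.02 without replicate 1 and 3.06 without WT replicate 1. *Blk* (chromosome 14, 63372836 to 63417037), encoding a Src family kinase of B cells, had 48 and 90 counts against 271 and 438. It was the member in which WT replicate 2 most exceeded WT replicate 1, and its log2FC was 2.52 (SE 0.33, edgeR adjusted p = 4.6e-06).

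The 2 largest log2FC of the 9 were those of *Fcer2a* and *Cr2*, surface receptors of mature B cells. *Fcer2a* (chromosome 8, 3681737 to 3694175) encodes CD23, the low affinity IgE receptor carried by follicular B cells, and had 50 and 30 counts in the WT libraries and 242 and 555 in the CD4/ALK4-KO libraries. The lower CD4/ALK4-KO library was 5.57 times the higher WT library in CPM. Its level was 2.93 ± 1.01 CPM in WT and 32.6 ± 17.4 CPM in CD4/ALK4-KO, log2FC 3.47 (SE 0.38, edgeR adjusted p = 1.5e-06), and 2.78 without CD4/ALK4-KO replicate 2. *Cr2* (chromosome 1, 195136811 to 195176716), which encodes the complement receptor CD21, had 79 and 72 counts against 449 and 669. CD4/ALK4-KO replicate 2 was 1.44 times replicate 1, and the lower CD4/ALK4-KO library was 6.54 times the higher WT library, the widest gap between the genotypes among the 9 genes. For *Cr2* the log2FC was 3.05 (SE 0.28, edgeR adjusted p = 6.4e-08).

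*Ms4a1* (chromosome 19, 11249675 to 11266241), which encodes CD20, had 246 and 212 counts in the WT libraries and 735 and 1098 in the CD4/ALK4-KO libraries. The groups did not overlap, CD4/ALK4-KO replicate 2 was 1.44 times replicate 1, and the log2FC was 2.16 (SE 0.24, edgeR adjusted p = 6.2e-07). *Cd22* (chromosome 7, 30865402 to 30880342), an inhibitory coreceptor of the B cell receptor, had 95 and 75 counts against 223 and 686. The WT libraries were close while CD4/ALK4-KO replicate 2 was 2.97 times replicate 1, and the log2FC was 2.57 (SE 0.48, edgeR adjusted p = 0.0035), falling to 1.58 without CD4/ALK4-KO replicate 2. The antisense gene *Gm29439* shares 479 bp of exon with *Cd22*, and reads of the pair cannot be told apart because the library kit does not mark strand.

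The lineage transcription factors had the lowest means per length in each genotype. In WT, *Ebf1* (0.651 ± 0.0433 CPM per kb of exon) and *Cr2* (0.683 ± 0.0385) were within their spread. *Pax5* (chromosome 4, 44524757 to 44710487) had 49 and 31 counts in the WT libraries and 103 and 406 in the CD4/ALK4-KO libraries. CD4/ALK4-KO replicate 2 was 3.80 times replicate 1, the widest gap of the 9 genes. For *Pax5* the log2FC was 2.82 (SE 0.70, edgeR adjusted p = 0.030), and it was 1.55 without CD4/ALK4-KO replicate 2 and 3.51 without replicate 1. The overlapping genes *5730488B01Rik* and *Gm12462* share 636 and 125 bp of exon with it. *Ebf1* (chromosome 11, 44617317 to 45008091) had 83 and 90 counts in WT and 99 and 192 in CD4/ALK4-KO. The groups barely separated, since CD4/ALK4-KO replicate 1 was 1.25 times the higher WT library. Its level was 6.35 ± 0.422 CPM in WT and 11.9 ± 5.12 CPM in CD4/ALK4-KO, log2FC 0.91 (SE 0.34, edgeR adjusted p = 0.042), the smallest of the 9. *Ebf1* was no longer called with upper quartile scaling, with edgeR and the replicate block (adjusted p = 0.11) or with DESeq2 (adjusted p = 0.072). Its log2FC was 0.38 without CD4/ALK4-KO replicate 2 and 1.32 without replicate 1. In a fit scaled to T cell receptor genes *Ebf1* was lower in CD4/ALK4-KO. Fibroblasts and pericytes also express *Ebf1*, and of 8 tested markers of these cells 4 were lower and 0 higher in the CD4/ALK4-KO libraries (median log2 fold change -0.71, with 15.4% of all genes lower). Their part in the level of *Ebf1* was not tested.

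Per kilobase of exon, *Cd79b* was the highest of the 9 genes in each library, at 15.7 ± 1.78 CPM per kb in WT and 50.6 ± 21.5 in CD4/ALK4-KO. *Cd79a* (3.44 ± 1.79), *Ms4a1* (2.72 ± 0.260) and *Blk* (1.88 ± 0.826) followed in WT, in an order whose neighbours were within their spread. In CD4/ALK4-KO the same 3 genes stood at 18.4 ± 12.9, 12.2 ± 3.11 and 10.8 ± 3.33 CPM per kb, with *Fcer2a* beside them at 10.6 ± 5.63, up from 0.949 ± 0.327 in WT. *Pax5* in WT (0.331 ± 0.103) and *Ebf1* in CD4/ALK4-KO (1.22 ± 0.524) had the lowest levels per kb.

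Promoter sequences are shown for *Fcer2a*, *Cr2* and *Pax5*, the 3 members with the largest log2FC. The RefSeq table (GRCm38.p6) matched 6 of the 9 genes, these 3 with *Cd79a*, *Cd22* and *Ebf1*, and not *Ms4a1*, *Cd79b* and *Blk*. The 250 bases before the most upstream RefSeq start of each gene were searched for letters bound by B lineage factors, on both strands: CAGGTG, an E-box of the E2A family, CCCNNGGGA, part of the EBF1 motif, ATTTGCAT, the octamer of OCT2, and GAGGAAG, bound by PU.1 and SPIB. The TATA box TATAAA was searched on the gene's own strand. RefSeq starts differ from the GENCODE gene starts given above. The start lay 1314 bp inside the GENCODE gene for *Cd22*, 783 bp inside for *Ebf1* and 116 bp inside for *Cd79a*, so that 102, 250 and 116 bases of these windows are exon in GENCODE, and they are not printed. For *Fcer2a*, *Cr2* and *Pax5* at most 1 base of the window is exon. Matches are in capitals, and each sequence runs 5′ to 3′ along the gene up to the base before its RefSeq start.
Fcer2a, chr8:3694175-3694424, minus strand: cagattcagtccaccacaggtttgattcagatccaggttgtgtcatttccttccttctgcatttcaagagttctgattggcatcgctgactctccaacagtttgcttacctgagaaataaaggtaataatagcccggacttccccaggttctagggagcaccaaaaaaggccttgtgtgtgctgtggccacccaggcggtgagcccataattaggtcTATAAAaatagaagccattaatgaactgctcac
Cr2, chr1:195176720-195176969, minus strand: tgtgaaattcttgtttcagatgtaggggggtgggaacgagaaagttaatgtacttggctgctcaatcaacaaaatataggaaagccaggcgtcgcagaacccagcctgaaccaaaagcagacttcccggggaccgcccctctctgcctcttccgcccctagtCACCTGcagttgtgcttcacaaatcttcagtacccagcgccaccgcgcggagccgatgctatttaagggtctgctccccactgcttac
Pax5, chr4:44710695-44710944, minus strand: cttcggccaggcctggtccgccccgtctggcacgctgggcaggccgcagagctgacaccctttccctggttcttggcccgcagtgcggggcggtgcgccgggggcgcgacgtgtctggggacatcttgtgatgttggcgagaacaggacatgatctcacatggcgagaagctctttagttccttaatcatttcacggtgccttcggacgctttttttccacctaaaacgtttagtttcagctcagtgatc

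The E-box was in 3 of these 6 windows, at -154 from the RefSeq start of *Cd79a*, -245 from that of *Cd22* and -88 from that of *Cr2*, and in 17.1% of 27025 windows of the same length. *Cd22* held the EBF1 letters on both strands as overlapping matches at -49 and -48 from its RefSeq start, and these were in 5.52% of all windows. *Fcer2a* held the TATA letters at -33 from its RefSeq start, found in 8.13% of all windows. The octamer (1.62% of all windows) and GAGGAAG (10.4%) matched none of the 6 windows, and *Pax5* and *Ebf1* held none of the searched letters. These matches describe letters, and binding was not measured in these libraries.

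The 2 CD4/ALK4-KO libraries differed in the same direction in all 9 genes. CD4/ALK4-KO replicate 2 was the higher in each, as it was for 51% of all genes tested, and it was over 1.5 times replicate 1 in 7 of the 9, against 13.8% of all genes. The ratio of replicate 2 to replicate 1 ran from 1.44 in *Cr2* and *Ms4a1* over 1.56 in *Blk*, 1.86 in *Cd79b*, 1.87 in *Ebf1* and 2.21 in *Fcer2a* to 3.80 in *Pax5*. Summed over the 9 genes it was 1.90, whereas for the 10 T cell markers it was 0.942. In WT, replicate 1 was the higher in 7 of the 9 genes, against 50.4% of all genes, with *Blk* and *Ebf1* as exceptions.

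Base composition moved with the difference between the CD4/ALK4-KO libraries. Over the other genes tested, the median log2 ratio of replicate 2 to replicate 1 was -0.44 for 835 genes with a GC content under 40% and 0.31 for 2410 genes between 55 and 60%. *Ms4a1* and *Cr2*, at 40.6% and 41.4% GC, had log2 ratios of 0.53 and 0.52, where genes within 1 percentage point of their GC content had medians of -0.37 and -0.35. *Cd79a*, at 54.9% GC, had a log2 ratio of 1.56 where such genes had a median of 0.33. All 9 members lay above the median at their own GC content, from 0.35 above it in *Blk* to 1.82 in *Pax5*. Of the genes with the GC content of *Blk* 21.0% had a higher ratio, and of those with that of *Pax5* 1.09%. The part of base composition in the levels of the members was not tested.

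**Figure D2:**
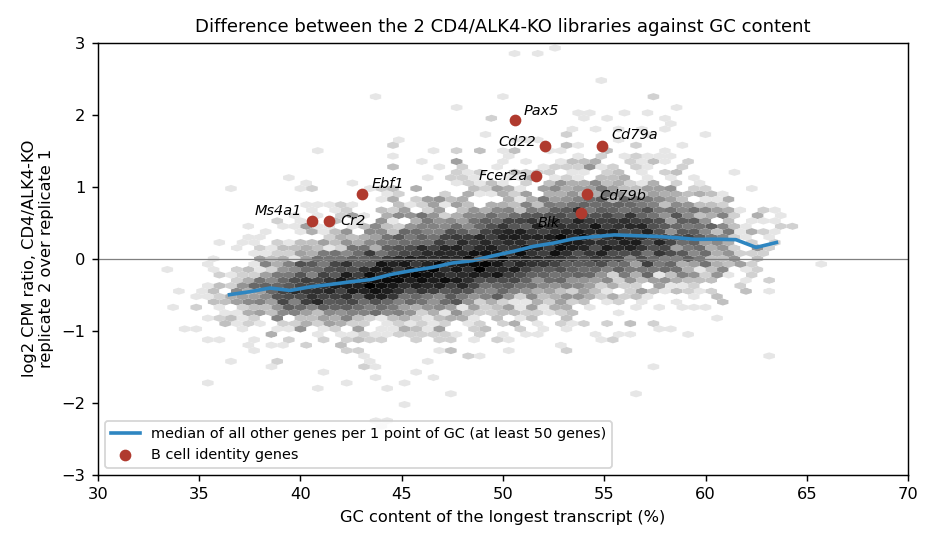
Log2 CPM ratio of CD4/ALK4-KO replicate 2 over replicate 1 (vertical axis) against the GC content of the longest transcript (horizontal axis). Grey hexagons hold the other genes tested, darker for more genes on a log scale, with values beyond the axes not drawn, the line is their median per point of GC, and all 9 B cell identity genes (red) lie above the line.

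The 9 genes did not keep the same proportions in the libraries. Of their summed counts (1076 and 922 in WT, 2887 and 5701 in CD4/ALK4-KO), *Cd79b* took 30.9% and 30.3% in WT and 20.9% and 20.4% in CD4/ALK4-KO. The exact (Clopper-Pearson) 95% intervals, which cover counting error only, were 28.1 to 33.7% and 27.3 to 33.3% in WT and 19.5 to 22.5% and 19.4 to 21.5% in CD4/ALK4-KO, so they did not overlap between the genotypes. *Ebf1* took 7.71% and 9.76% in WT and 3.43% and 3.37% in CD4/ALK4-KO. *Fcer2a* and *Cr2* went the other way, with *Fcer2a* at 4.65% and 3.25% in WT and 8.38% and 9.74% in CD4/ALK4-KO. The share of *Cr2* was 7.34% and 7.81% in WT and 15.6% and 11.7% in CD4/ALK4-KO. The shares of *Ms4a1*, *Cd79a*, *Cd22*, *Pax5* and *Blk* overlapped between the genotypes, with *Pax5* highest in CD4/ALK4-KO replicate 2 (7.12%) and between 3.36% and 4.55% in the other 3 libraries. These differences in share were not tested across libraries.

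**Figure D3:**
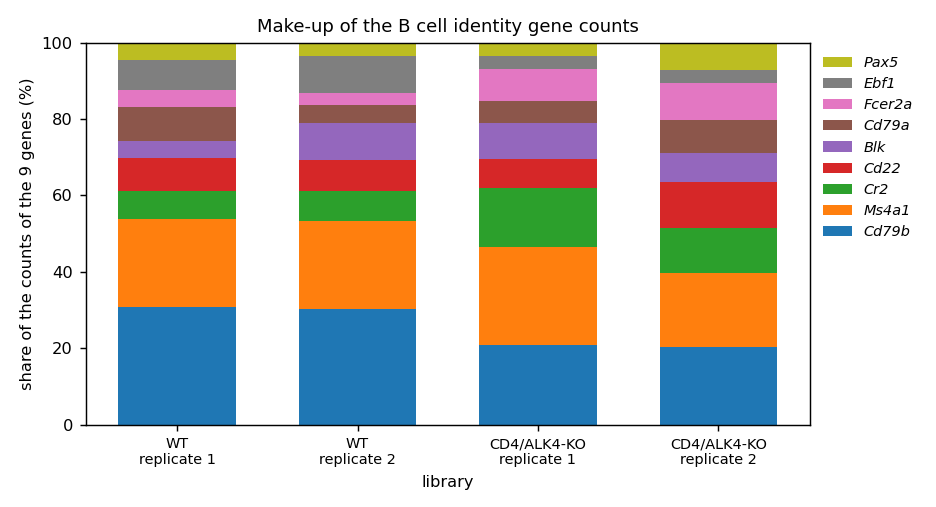
Share of each gene in the summed raw counts of the 9 B cell identity genes (vertical axis, percent), as 1 stacked bar per library. *Cd79b* fills 30.9% and 30.3% of the WT bars and 20.9% and 20.4% of the CD4/ALK4-KO bars, while *Cr2* and *Fcer2a* fill more of the CD4/ALK4-KO bars.

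Since T cell markers rose as well, the 9 genes were also set against T cell receptor complex genes. Per 100 counts of *Cd3d*, *Cd3e*, *Cd3g* and *Cd247*, the libraries held 40.6 and 37.6 counts of B cell identity genes in WT and 26.8 and 57.4 in CD4/ALK4-KO. On this measure the WT libraries lay between the CD4/ALK4-KO libraries. Scaling the libraries to these 4 genes in place of TMM shifted the log2FC over all genes by -2.18 (median), and 92% of all genes were then lower and 0.345% higher in the CD4/ALK4-KO libraries. On this scale 2 of the 9 members were higher, *Fcer2a* at 1.33 (standard error 0.37, adjusted p = 0.00049) and *Cr2* at 0.88 (standard error 0.33, adjusted p = 0.0093), by edgeR's quasi-likelihood test. *Ebf1* was lower, at -1.25 (standard error 0.37, adjusted p = 0.0010, edgeR). The other 6 did not pass, from -0.47 in *Cd79b* (adjusted p = 0.099) over -0.0039 in *Ms4a1* to 0.69 in *Pax5* (adjusted p = 0.13). These calls turned on which CD4/ALK4-KO library was used, in a comparison added after the data were seen. Without replicate 1, 6 members were higher on this scale (*Cd79a*, *Pax5*, *Cd22*, *Fcer2a*, *Cr2* and *Blk*) and *Ebf1* was lower, with 0.618% of all genes higher and 89.2% lower. Without replicate 2, 0 members were higher and 4 were lower (*Cd79a*, *Cd79b*, *Cd22* and *Ebf1*), with 0.498% of all genes higher and 91.2% lower.

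**Figure D4:**
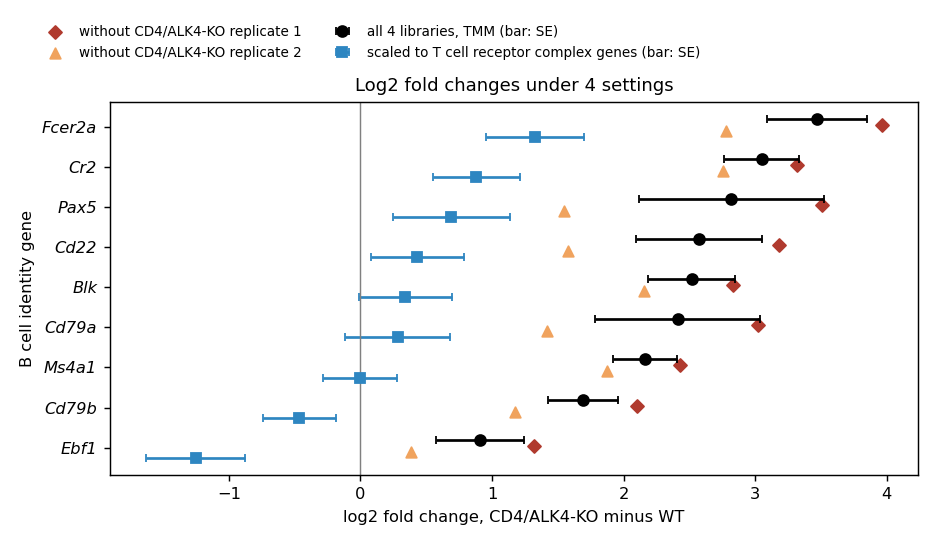
Log2 fold change, CD4/ALK4-KO minus WT, of each B cell identity gene for all 4 libraries with TMM (black, bar: standard error), without either CD4/ALK4-KO library, and scaled to the T cell receptor complex (blue, bar: standard error). With TMM all 9 lie above 0, and on the T cell receptor scale *Fcer2a* and *Cr2* stay the highest while *Ebf1* falls to -1.25.

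Other genes of the B lineage were compared by 3 lists of receptor signalling, surface receptors and transcription factors, 37 genes in all. These lists too were chosen with earlier results of these data known. Of the 37 genes, 32 were higher and 0 lower in the CD4/ALK4-KO libraries, against 17.4% and 15.4% of all genes tested. The other 5 did not pass the test in edgeR, and the median log2FC of the 37 was 1.71. Calls from fits without 1 of the CD4/ALK4-KO libraries are not given, since they leave 1 library in that genotype. Scaled to the T cell receptor complex, 3 of the 37 were higher and 14 lower, against 0.345% and 92% of all genes. As in the 9 members, CD4/ALK4-KO replicate 2 exceeded replicate 1 in 32 of the 37, against 51% of all genes tested.

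In the list of B cell receptor signalling and coreceptors 11 of 13 genes were higher, with a median of 1.23. The adaptor genes *Bank1* (1.74) and *Blnk* (1.62), *Cd72* (1.03), an inhibitory B cell receptor, and *Btk* (0.71), the kinase downstream of the receptor, were among them. *Lyn* (0.37, adjusted p = 0.22) and *Fcgr2b* (-0.17, adjusted p = 0.60, edgeR), the most abundant of the list in the mean of the 4 libraries and shared with myeloid cells, did not pass.

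Of 13 other surface receptors 12 were higher, with a median of 1.71, and *Cd180* (0.49) was the exception. *Cxcr5*, the chemokine receptor that guides B cells and follicular helper T cells into follicles, had 60 and 37 counts against 221 and 467, log2FC 2.98 (edgeR adjusted p = 2.1e-06). *Tnfrsf13c*, which encodes the BAFF receptor, had 16 and 9 counts against 50 and 142 with log2FC 3.09 (SE 0.53). *Fcrla* rose by 1.46 and *Cd40* by 0.89 on the log2 scale. *Btla*, the most abundant of the list and also found on T cells, rose by 2.00. It had 1982 counts in CD4/ALK4-KO replicate 1 and 1665 in replicate 2, the reverse order of the 9 members.

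Of 11 other B lineage transcription factors 9 were higher, with a median of 2.07. *Spib* (2.60), *Pou2af1* (2.30), the octamer coactivator, *Bach2* (2.84) and *Bcl11a* (2.07) were among them, and *Bach2* is also used by T cells. *Tcf3* (-0.51) and *Tcf4* (-0.51, adjusted p = 0.070, edgeR), which encode E proteins, did not pass the test.

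**Figure D5:**
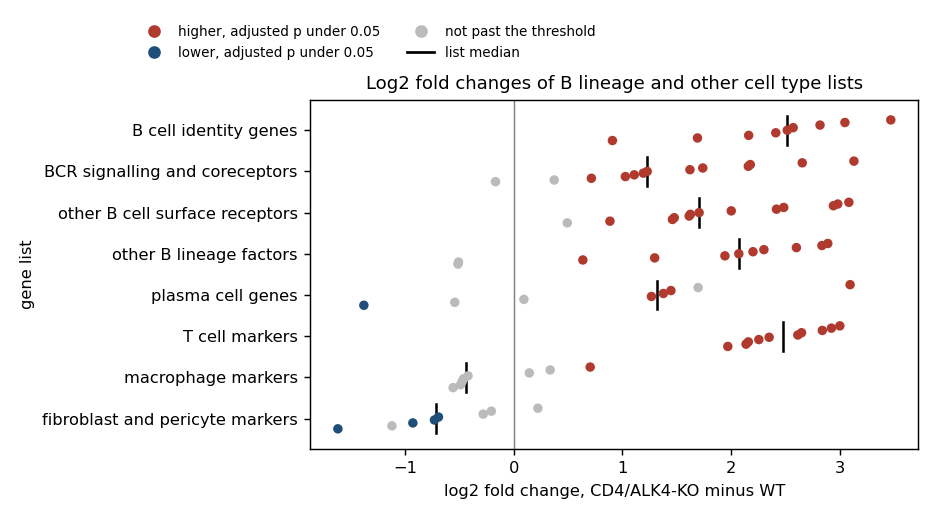
Log2 fold changes, CD4/ALK4-KO minus WT, of every tested gene of 8 lists, with 1 point per gene, coloured by whether it passed an adjusted p of 0.05 with edgeR, and a bar at the list's median. The B cell identity genes and T cell markers lie to the right of 0 throughout, with medians of 2.52 and 2.48, while macrophage (-0.44) and fibroblast markers (-0.71) have medians below 0.

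Later and earlier stages of the lineage were less uniform. Of 8 tested plasma cell genes 4 were higher and 1 lower, where 17.4% of all genes tested were higher and 15.4% lower. *Jchain*, which joins the units of secreted IgM and IgA, had 577 and 444 counts in WT and 917 and 1277 in CD4/ALK4-KO (log2 fold change 1.27, adjusted p = 0.00021, edgeR). *Mzb1* (1.38), a chaperone of antibody secretion, rose as well, as did *Irf4* (3.10), a factor that activated T cells share. On the T cell receptor scale *Jchain* was at -0.90, *Mzb1* at -0.78 and *Irf4* at 0.93. That scaling shifted the log2FC over all genes by -2.18 (median). *Sdc1*, which encodes CD138 and is also made by epithelial cells, fell by 1.38 on the log2 scale, and *Txndc5*, the most abundant of the list in the mean of the 4 libraries, was at -0.54 without passing the test. Of 4 tested germinal centre genes 1 was higher, *Bcl6*, and *S1pr2*, the most abundant, was at -0.40 (adjusted p = 0.25, edgeR). Of the 3 precursor genes tested 1 was higher, *Vpreb3* (1.60, adjusted p = 0.039, edgeR), with 21 and 7 counts against 36 and 40. Immunoglobulin constant region genes were not analysed here.

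Follicular dendritic cells also carry CD21 and CD23. Their chemokine gene *Cxcl13* had 1662 and 1279 counts in WT and 553 and 982 in CD4/ALK4-KO and was lower (log2 fold change -0.78, adjusted p = 0.018, edgeR), while *Madcam1* had at most 4 counts and *Coch* at most 14 in any library. Over all genes tested, 17.4% were higher and 15.4% lower. Of the other cell lists, 2 of 4 tested plasmacytoid dendritic cell markers and 1 of 2 gamma delta T cell markers were higher. Conventional dendritic cell markers had 2 of 5 higher and 1 lower, macrophage markers 1 of 8 higher, neutrophil markers 2 of 5 higher, epithelial markers 1 of 6 higher and 3 lower, and endothelial markers 1 of 5 higher and 1 lower. All 10 T cell markers were higher. Their part in the levels of the 9 members was not tested.

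The genes whose pattern over the 4 libraries was most like the mean of the 9 members were sought among 11622 other genes, each averaging 50 counts or more. Likeness was the Euclidean distance between centred log2 CPM profiles. The closest were *Spib* (distance 0.19), the B lineage factor already described, *Il2rb* (0.21), a chain of the interleukin 2 and 15 receptors, *Eomes* (0.24), a T-box factor, *Arhgap4* (0.25) and *Ptpn7* (0.26). For comparison, the members themselves lay 0.36 (*Cd22*) to 1.49 (*Ebf1*) from their own mean. *Il2rb* had 504 and 404 counts in WT and 1359 and 2480 in CD4/ALK4-KO, and *Eomes* had 26 and 25 against 68 and 159, so that CD4/ALK4-KO replicate 2 was the highest library in both.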

How the data were processed

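CD4+ T cells from LLC-OVA lung tumors were profiled in 2 WT and 2 CD4/ALK4-KO libraries, and groups and replicate numbers were taken from the labels. Single-end reads were mapped by the authors with HISAT2 (mm10) and assigned to genes by htseq-count (intersection non-empty). The deposited values are raw counts, not normalized. The annotation, strand option and versions are not given in the sources used here. Replicates differed beyond sampling noise (chi-square per degree of freedom 16.0 in WT and 28.7 in CD4/ALK4-KO). From the counts, edgeR 4.0.16 (R 4.3.3) with filterByExpr, TMM and a robust quasi-likelihood fit on genotype was tested with glmQLFTest over 13919 genes, with Benjamini-Hochberg adjustment, and DESeq2 1.42.0 was an alternative. The fit was tested on simulated data. The SE was taken as |log2FC| over the root of the F statistic. CPM used TMM-adjusted library sizes. Positions, exon lengths and GC content are from GENCODE M21 (GRCm38), and promoters from RefSeq. The members and lists were chosen with earlier results of these data known. The genes named are the 9 members, set genes of each list with its most abundant gene, and the 5 most similar profiles. Some of the set genes are not reported here. Single exceptions (*Rag2*, *Dntt*, *Ptcra*, *Vpreb1*, *Igll1*, *Cd180*, *Bcl6*, *Irf4*, *Madcam1*, *Coch*, *Tcf3*, *Rps29*, *Tmsb10*, *Cd8a*, *Cd8b1*) were named after their values were seen. Alternatives were other scalings, filters, tests, the replicate block, removal of ribosomal and similar genes, and each library left out.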

Additional observations from a re-analysis of the deposited data

How the results depend on the processing

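The 9 genes stayed above 0 under every alternative except scaling to the T cell receptor complex. Between 8 and 9 of them were called higher under the other alternatives, and the gene that was lost was *Ebf1* (upper quartile scaling, DESeq2, the replicate block and leaving out WT replicate 1, WT replicate 2 or CD4/ALK4-KO replicate 2). With TMM, leaving out each library gave 8 to 9 called members, a median of 1.58 to 3.02, 26 to 33 companion genes higher and 0 to 1 lower. Over all genes it gave 1103 to 2923 higher and 754 to 2618 lower, against 2422 and 2140 with all 4 libraries, the lowest being without WT replicate 1 (1103 and 754) and WT replicate 2 (1344 and 1047). The cause was not tested.

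On the T cell receptor scale 2 members were called higher, their median was 0.34, 3 companion genes were higher and 14 lower, and over all genes 48 were higher and 12803 lower. Among the members and the named B lineage genes, log2 fold changes below 0 there with a value above 0 under TMM were -0.0039 for *Ms4a1*, -0.47 for *Cd79b*, -1.25 for *Ebf1*, -1.47 for *Btk*, -0.54 for *Blnk*, -0.43 for *Bank1*, -1.14 for *Cd72*, -1.29 for *Cd40*, -0.69 for *Fcrla*, -0.093 for *Bcl11a*, -0.56 for *Vpreb3*, -0.90 for *Jchain*, -0.78 for *Mzb1*, -1.82 for *Lyn*, -0.19 for *Btla*, -1.68 for *Cd180* and -1.36 for *Bcl6*. With each library left out in turn, *Rag1* spanned -1.85 (CD4/ALK4-KO replicate 1 left out) to 8.34 (WT replicate 2 left out). Companion genes called lower numbered 2 with upper quartile scaling. Scaling to the T cell receptor complex was also combined with leaving out either CD4/ALK4-KO library. On that scale without CD4/ALK4-KO replicate 1 (added after the data were seen), 6 members were higher with a median of 0.90, 9 companion genes were higher and 14 lower, 89 of all genes were higher and 12850 lower, and *Cd79b* was at -0.030 and *Ebf1* at -0.81. Without replicate 2 instead, 0 members were higher with a median of -0.68, 0 companion genes were higher and 20 lower, and 72 of all genes were higher and 13185 lower. *Ms4a1* was then at -0.39, *Cd79a* at -0.83, *Cd79b* at -1.09, *Pax5* at -0.70, *Cd22* at -0.68, *Blk* at -0.12 and *Ebf1* at -1.88. The share of *Cd79b*, a mean of 25.6% of the counts, was 49.9% per kilobase of exon.

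With the replicate number as a block, 8 members and 30 companion genes were called higher, and over all genes 1444 were lower. Same-numbered libraries deviated from their group means with a correlation of -0.21 over 13919 genes, so the numbers do not show a pairing. The crossed pairing, added after the data were seen, called 9 members and 33 companion genes higher and 2 lower. Counts limit *Pax5* and *Fcer2a* most, with 30 to 50 reads in each WT library.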
